A study of Mus musculus with 6 samples.

Results

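The genes described here are 30 genes of mitosis, the phase in which a cell separates its copied chromosomes and divides. They were taken by symbol from a table of 24940 genes measured in primary hepatic stellate cells of the mouse, which lie along the liver's sinusoids and store vitamin A. All 30 were found, 1 row each, and all 30 had enough counts to be tested, beside 13357 tested genes in all. They were chosen by name and not by a measured value, with earlier results on these libraries known. The lowest value of any member was 33.0 counts, for Ttk in 1 library, so no member entered the test through 1 group alone.

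The cells came from female wild-type C57BL/6JBomTac mice and were in culture for 2 days before treatment. One group (labelled Fsk) received 5 µM forskolin, a plant compound that raises cyclic AMP by switching on adenylyl cyclase. The control group (labelled Ctrl) received the same volume of the vehicle DMSO at 1:1000. In both groups the medium was replaced after 3 h and RNA was taken 21 h later, 24 h after treatment began. Each group had 3 libraries of polyadenylated RNA with the letters A, B and C. Nothing in the labels ties a library to an animal, isolation or dish of its own, so the p-values reflect the spread between these 6 libraries alone, and that spread may be technical. No measure of cell division other than these transcripts was used here.

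Total counts were 10890193 to 12954310 in the forskolin libraries and 13001358 to 15090262.5 in the vehicle libraries, so every vehicle library was deeper. Across genes, which are not independent replicates, Pearson's r of log2 levels was 0.990 to 0.995 for libraries of the same group and 0.965 to 0.969 for libraries of different groups. Of 13 stellate cell markers all were tested and present in every library, but 6 fell and 5 rose (all genes 25.1% and 24.8%). Among them were the transcription factor gene Tcf21 and the growth factor gene Hgf, with log2 fold changes of -1.96 and 1.02. The list had a summed level of 4573 to 4687 CPM (counts scaled to a common library size by TMM) with forskolin and 4869.8 to 5131 CPM with vehicle. Forskolin A stood apart from the other libraries in the mitosis genes, so the fit was repeated without it, and log2 fold changes from that fit stand beside the main ones. The choice of that library rests on the values tested, so the p-values of that fit for the mitosis genes are descriptive only.

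Mitotic genes are transcribed in a wave that begins in late S phase and peaks in G2 and mitosis, and cells outside the cycle hold little of their RNA. The wave is driven by the factor FOXM1, by B-MYB and by the MuvB complex, while the related DREAM complex represses the same promoters in resting cells. MuvB binds a short promoter element named the cell cycle genes homology region, often found next to CCAAT boxes bound by NF-Y. In the liver, stellate cells rest in the healthy organ and enter the cycle when they become activated, as they also do in culture on plastic.

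Promoter sequences are shown first because this shared element is what is best known of how these genes are switched together. RefSeq promoters (build GRCm38.p6) were matched by symbol for 25 of the 30 members. Ccna2, Aurkb, Foxm1, Kif20a and Tpx2 had no entry. The letters searched on both strands in the 250 bases before the start were TTTGAA and TTTAAA for the homology region, CCAAT for the NF-Y box, and TGACGTCA and its shorter form TGACG for the cyclic AMP response element, the short form being part of the whole. The last 150 bases before the start are printed for 8 members that hold a homology region or a cyclic AMP element, 5′ to 3′ on the gene's strand, with the matches in capitals.
Mki67 (chr7:135716380-135716529, minus strand): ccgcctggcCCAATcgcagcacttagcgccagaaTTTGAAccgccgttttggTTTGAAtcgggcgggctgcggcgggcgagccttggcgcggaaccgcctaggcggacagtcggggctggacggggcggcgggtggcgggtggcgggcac
Top2a (chr11:99024190-99024339, minus strand): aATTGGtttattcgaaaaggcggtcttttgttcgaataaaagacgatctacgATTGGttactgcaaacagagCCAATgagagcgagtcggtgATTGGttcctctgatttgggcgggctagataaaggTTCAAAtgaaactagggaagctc
Ccnb1 (chr13:100786487-100786636, minus strand): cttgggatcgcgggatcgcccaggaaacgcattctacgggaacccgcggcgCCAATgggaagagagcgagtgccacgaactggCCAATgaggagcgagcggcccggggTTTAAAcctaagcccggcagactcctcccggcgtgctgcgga
Cdk1 (chr10:69352913-69353062, minus strand): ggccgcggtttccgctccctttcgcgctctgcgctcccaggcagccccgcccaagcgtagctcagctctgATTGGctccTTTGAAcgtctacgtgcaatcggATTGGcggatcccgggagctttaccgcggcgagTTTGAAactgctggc
Plk1 (chr7:122159285-122159434, plus strand): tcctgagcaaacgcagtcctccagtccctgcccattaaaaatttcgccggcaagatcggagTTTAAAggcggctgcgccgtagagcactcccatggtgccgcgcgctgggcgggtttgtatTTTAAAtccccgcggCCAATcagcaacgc
Cdc20 (chr4:118437344-118437493, minus strand): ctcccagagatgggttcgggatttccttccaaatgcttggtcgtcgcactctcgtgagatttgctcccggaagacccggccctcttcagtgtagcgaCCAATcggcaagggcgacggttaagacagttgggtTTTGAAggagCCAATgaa
Kif11 (chr19:37376232-37376381, plus strand): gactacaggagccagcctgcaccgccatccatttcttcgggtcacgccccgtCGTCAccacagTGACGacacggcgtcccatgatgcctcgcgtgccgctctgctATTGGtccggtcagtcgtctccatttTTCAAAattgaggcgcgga
Cenpe (chr3:135212413-135212562, plus strand): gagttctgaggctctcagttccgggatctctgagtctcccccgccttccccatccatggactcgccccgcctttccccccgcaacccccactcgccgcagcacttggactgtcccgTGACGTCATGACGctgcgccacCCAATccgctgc

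Either form of the homology region lay in the 250 bases before the start in 14 of 25 members (56.0%) against 22.5% of all promoters, 18095 promoters of genes in the table having been searched. With the 50 bases after the start included, it was found in 22 of 25 members (88.0%) against 24.3% of all promoters of that length. A CCAAT box was found in 19 of 25 members (76.0%) against 35.9% of all promoters, and at least 2 boxes in 13 of 25 members (52.0%) against 11.6% of all promoters. In Cdk1 and Cdc20 a TTTGAA lies close to the start with CCAAT boxes near it. Ccnb1 has TTTAAA downstream of a pair of CCAAT boxes, and Plk1 has TTTAAA at 2 places before a single box. In the 250 bases the whole cyclic AMP element TGACGTCA was in Cenpe, 1 of 25 members (4.0%) against 2.06% of all promoters, and with the 50 bases after the start also in Ndc80, 2 of 25 members (8.0%) against 2.39% of all promoters. The short form TGACG was in 5 of 25 members (20%) against 20.8% of all promoters before the start, and in 8 of 25 members (32.0%) against 24.4% of all promoters with the bases after it. Promoters of tested genes alone, 10371 in all, gave 27.5% and 32.2%, so the short form was no more frequent in the members than in these. They gave 2.76% and 3.28% for the whole element and 17.1% and 18.7% for either form of the homology region. Before the start they gave 36.4% for a CCAAT box and 13.5% for at least 2. The Kif11 and Kif2c entries start 21 and 3852 bases from the start given in the deposited table, and the other 23 entries start at the same base. These matches describe letters and do not show binding.

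Among the vehicle libraries the members differed widely in level per length, given as CPM per kilobase of exon (mean ± SD, n = 3). Anln, which encodes anillin, the scaffold of the cleavage furrow, was highest at 29.3 ± 1.01, and Ube2c, which encodes the ubiquitin-conjugating enzyme of the anaphase-promoting complex, followed at 25.4 ± 1.14. Prc1 (16.8 ± 0.709) and Cdc20 (16.8 ± 0.565) came next and did not differ beyond their spread. The proliferation marker gene Mki67 stood in 16th place at 7.29 ± 0.380. Cenpf, which encodes a large kinetochore protein, was lowest at 1.21 ± 0.126, below Ttk (2.84 ± 0.206) and Bub1 (2.90 ± 0.377), which overlapped. All 30 were therefore expressed by these cells or by some of them in culture without forskolin.

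The summed level of the 30 genes differed more between the forskolin libraries than between the groups. It was 591, 841 and 959 CPM in forskolin A, B and C, and 937, 1003 and 941 CPM in vehicle A, B and C. The 3 vehicle libraries were alike, forskolin C lay among them, forskolin B lay below them and forskolin A was far below all others, at 61.6% of the vehicle mean against 87.6% and 99.9% for B and C. The group values were 797 ± 188 CPM with forskolin and 960.2 ± 37.0 CPM with vehicle (SD, n = 3 each), and the groups overlapped. The sums rest on 6488.5 counts in forskolin A and 11952.5 in vehicle C. On unscaled library sizes forskolin A was at 596 CPM with an exact 95% binomial interval of 581 to 610.4, and vehicle C at 919 CPM with one of 903 to 936, which cover counting error only. In bulk RNA, fewer dividing cells and less of this RNA per dividing cell cannot be told apart.

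**Figure D1:**
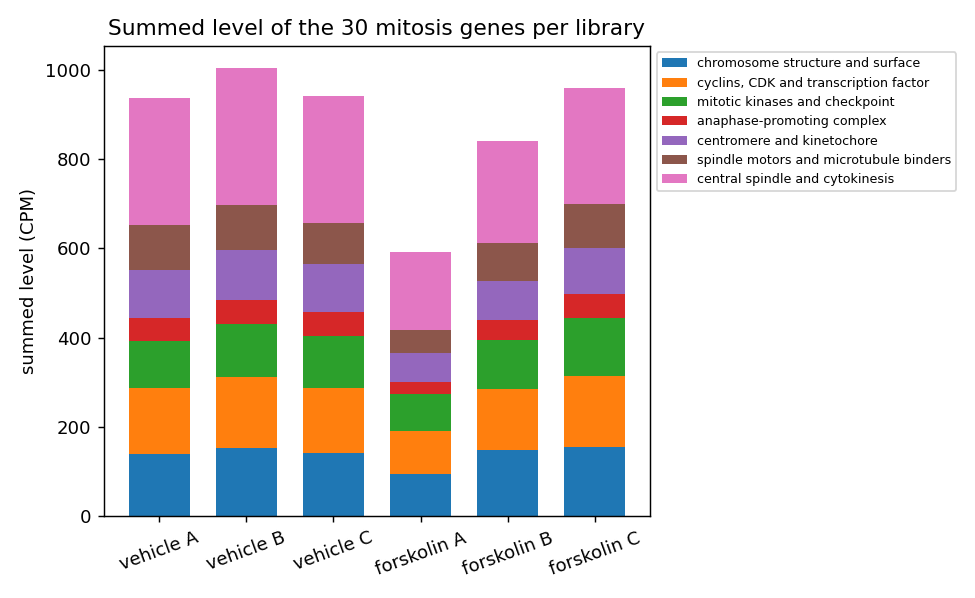
Summed level of the 30 mitosis genes in CPM on the vertical axis for each of the 6 libraries, stacked by the role of the genes. Forskolin A stands at 591 CPM, forskolin B and C at 841 and 959 CPM, and the vehicle libraries between 937 and 1003 CPM.

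The low level of forskolin A ran through every member. It was the lowest of the 6 libraries for 30 of 30 members, which holds for 18.8% of all tested genes. Among the 3 forskolin libraries it was lowest for 30 of 30 (all genes 34.8%), and forskolin C was highest for 29 of 30 (all genes 36.0%), Bub1b being the exception. The level in forskolin A over the mean of forskolin B and C, as log2 with 0.5 CPM added, had a median of -0.68 over the members and 0.00 over all genes. It ranged from -1.47 for Ttk, the checkpoint kinase gene, to -0.23 for Ccna2, the cyclin A gene. Of the 30 members 23 lay below -0.41, the value under which 5% of all genes lie. The coefficient of variation over the forskolin libraries had a median of 26.8% for the members against 6.82% for all genes, and over the vehicle libraries 6.62% against 4.84%. Forskolin A was also the shallowest library. From the shallowest to the deepest the forskolin libraries were A, C and B, and from the lowest to the highest sum A, B and C. Why forskolin A was low was not tested.

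**Figure D2:**
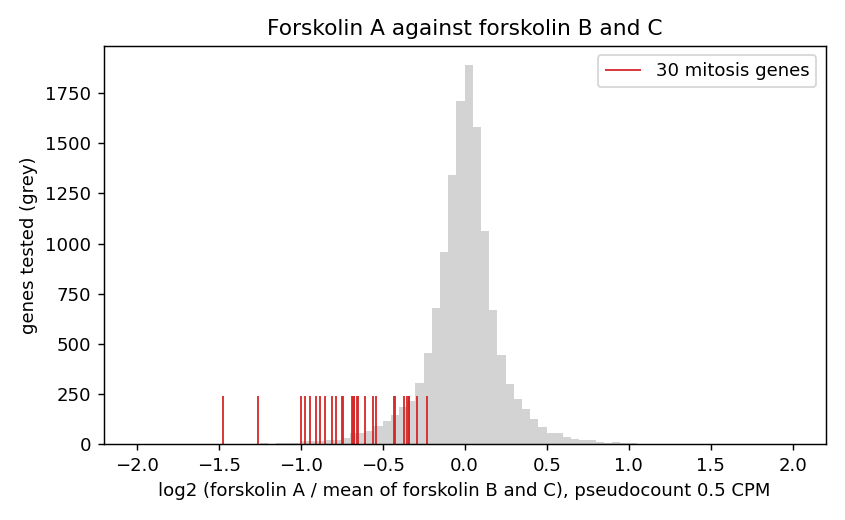
Number of tested genes (grey bars, vertical axis) by the log2 ratio of forskolin A to the mean of forskolin B and C (horizontal axis, 0.5 CPM added, values past 2 in size drawn at the ends). The 30 mitosis genes, drawn as red ticks, lie between -1.47 and -0.23, all left of the median of all genes at 0.00.

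Forskolin was then compared with vehicle over all 6 libraries. Of the 30 members 10 fell and 0 rose (edgeR, adjusted p under 0.05 over all genes), while 25.1% of all tested genes fell and 24.8% rose, 49.9% in all. The members that fell were Cenpe, Anln, Kif20a, Tpx2, Prc1, Cenpa, Foxm1, Mki67, Ccnb1 and Ect2. The median log2 fold change was -0.25 over the members and 0.01 over all genes. Of the members' estimates 26 of 30 were below 0 (all genes 6555 of 13357), forskolin A being low for every member. For 9 of 30 members the 3 forskolin libraries lay below the 3 vehicle libraries without overlap (all genes 28.4%), and for 0 they lay above (all genes 28.9%). Ccnb1 was the only one of the 10 that overlapped. At an unadjusted p under 0.05, 0 members were higher by edgeR, and DESeq2 also called 0 higher. The share of members that fell was close to that of all genes, so the count is no result about mitosis genes.

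**Figure D3:**
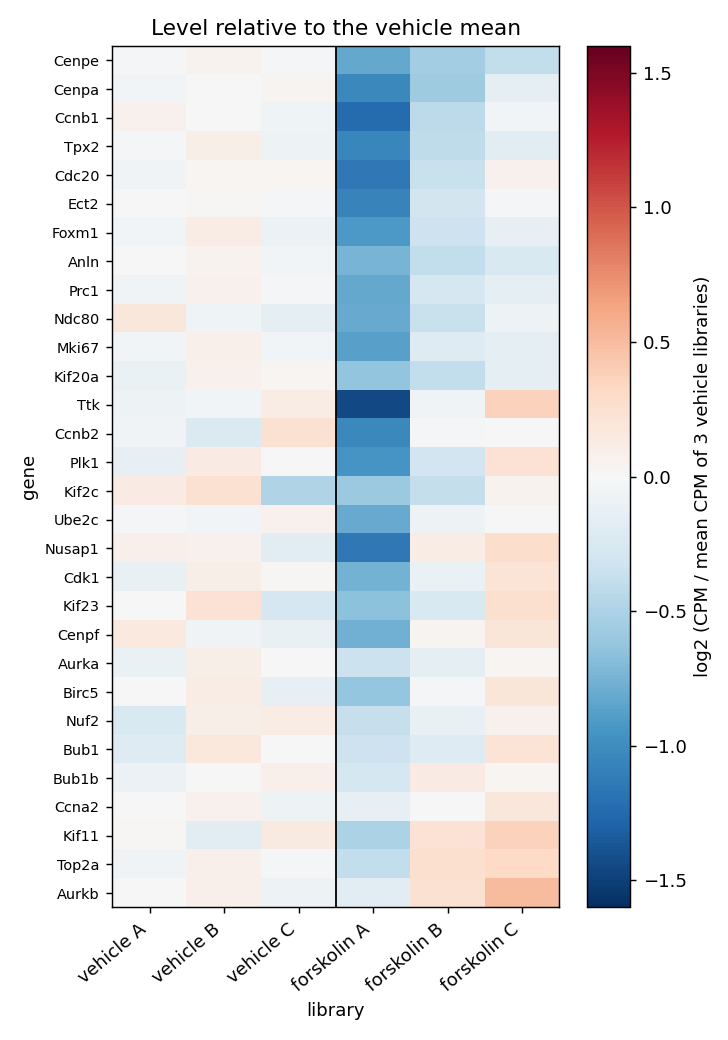
Log2 ratio of each gene's CPM to its mean over the 3 vehicle libraries (colour), for 30 genes (rows) in 6 libraries (columns), ordered by the mean over the forskolin libraries. Forskolin A is blue throughout, while forskolin C runs from below the vehicle mean for Cenpe to above it for Aurkb.

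Without forskolin A members passed in both directions. It was the lowest forskolin library for every member, so leaving it out had to raise each estimate, and that shift is no result. With forskolin B and C alone against the 3 vehicle libraries, 8 members fell (all genes 24.7%) and 3 rose (all genes 24.4%). The 8 that fell were all among the 10 above, Ccnb1 and Ect2 being lost, as they also were without forskolin B, vehicle A or vehicle C. The 3 that rose were Top2a, Aurkb and Kif11, whose names were taken from this fit after their values were seen. The median log2 fold change over the members was -0.03. Leaving out forskolin C instead, the library with the highest levels, gave 17 members lower (all genes 25.3%) and a median of -0.45. Without vehicle B 5 members fell (all genes 21.2%). DESeq2 called 4 members lower (all genes 22.3%), Cenpe, Anln, Kif20a and Cenpa. With library size as a covariate 1 was lower, Cenpe, and 1 higher, Top2a (all genes 32.2% in either direction), and the median was 0.02. As every vehicle library was deeper than every forskolin library, that fit separates depth from treatment only in part.

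**Figure D4:**
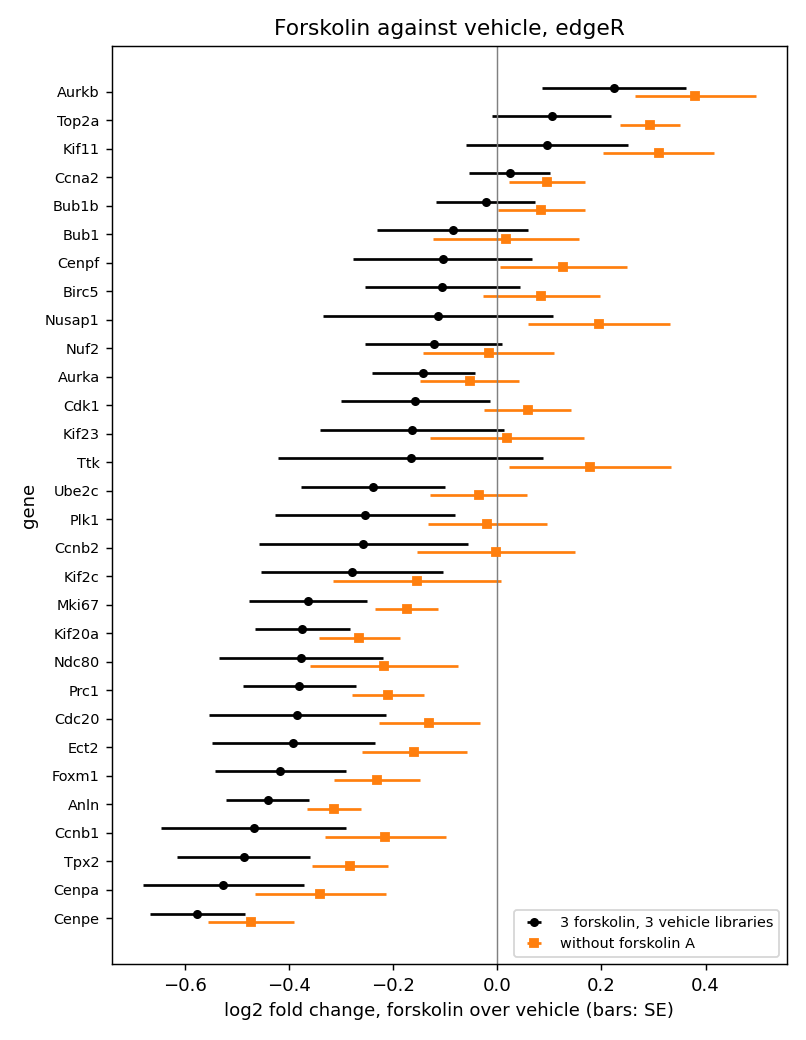
Log2 fold change of forskolin over vehicle (horizontal axis, bars are SE) for each of the 30 genes, with all 6 libraries (black circles) and without forskolin A (orange squares). Forskolin A was the lowest forskolin library for every gene, so every square lies to the right of its circle. Top2a, Kif11 and Aurkb reach 0.29, 0.31 and 0.38 without forskolin A.

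The cyclins and CDK1 form the kinase that drives entry into mitosis. Cdk1, its catalytic subunit, was at 24.5, 38.4 and 48.0 CPM in forskolin A, B and C, against 38.1, 44.3 and 41.9 CPM in vehicle A, B and C. Forskolin A was low, forskolin C was above all vehicle libraries, and no difference between the groups passed (log2 fold change -0.16, SE 0.144, adjusted p = 0.383), nor without forskolin A, with 0.06 (adjusted p = 0.599). Ccnb1, the main mitotic cyclin gene (mm10 chromosome 13, 100778739 to 100786486), was at 7.65, 13.5 and 17.5 CPM with forskolin and 18.9, 18 and 17.1 CPM with vehicle. Forskolin C lay within the vehicle range, and the gene fell over all libraries (log2 fold change -0.47, SE 0.178, adjusted p = 0.0362) but its call was lost without any 1 library other than forskolin C, with -0.22 (adjusted p = 0.128) without forskolin A. Only 57.9% of its 50-base stretches are found in no other gene, several Ccnb1 pseudogenes sharing the rest, so its counts are uncertain. Ccnb2 and the S and G2 cyclin gene Ccna2 did not pass (log2 fold changes -0.26 and 0.02, SE 0.201 and 0.0773). Ccna2 was the member least low in forskolin A, at 85.3% of the mean of forskolin B and C. Its exons overlap Exosc9, as those of Ube2c overlap Tnnc2, and the strand is not stated, so reads of either neighbour cannot be told apart from theirs.

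Foxm1 encodes the transcription factor of the G2 and mitosis wave. It stood at 20.5, 30.8 and 35.2 CPM in forskolin A, B and C, against 37.7, 42.0 and 36.4 CPM in vehicle A, B and C (mm10 chromosome 6, 128362994 to 128375886). All forskolin libraries were below all vehicle libraries, and the gene fell (log2 fold change -0.42, SE 0.125, adjusted p = 0.00998). Without forskolin A the log2 fold change was -0.23 (adjusted p = 0.0223). The call was lost without vehicle B (adjusted p = 0.0796), by DESeq2 (adjusted p = 0.128) and with library size as a covariate (adjusted p = 0.821).

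None of the 6 genes of mitotic kinases and checkpoint proteins passed over all libraries (all genes 49.9% in either direction). Plk1, the polo-like kinase gene that acts in centrosome maturation and chromosome segregation, was at 13.1, 20.3 and 29.6 CPM in forskolin A, B and C, against 22.9, 27.5 and 25.1 CPM in vehicle A, B and C. Its forskolin values spanned from well below to above the vehicle range (log2 fold change -0.25, SE 0.174, adjusted p = 0.238), and without forskolin A the value was -0.02 (adjusted p = 0.905). Aurka, the aurora kinase gene of the centrosome and spindle pole, was at 19.2, 22.2 and 25.0 CPM with forskolin and 22.7, 26.2 and 24.5 CPM with vehicle (log2 fold change -0.14, SE 0.0992, adjusted p = 0.249), and the groups overlapped, with -0.05 (adjusted p = 0.675) without forskolin A. Aurkb, the aurora kinase gene of the chromosomal passenger complex, was at 11.8, 15.8 and 19.0 CPM with forskolin and 13.3, 14.2 and 12.6 CPM with vehicle. Forskolin B and C were above all vehicle libraries and forskolin A was below them, with log2 fold changes of 0.22 (SE 0.139, adjusted p = 0.193) over all libraries and 0.38 (adjusted p = 0.00812) without forskolin A. Ttk, the gene of the spindle checkpoint kinase MPS1, had the widest spread, 3.01, 7.90 and 10.6 CPM with forskolin and 7.75, 7.94 and 8.86 CPM with vehicle. Bub1 and Bub1b, genes of the same checkpoint, had log2 fold changes of -0.09 and -0.02 and did not pass.

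Cdc20 and Ube2c serve the anaphase-promoting complex, the ubiquitin ligase that ends mitosis. Cdc20, its activator gene, was at 13.4, 23.2 and 31.2 CPM in forskolin A, B and C, against 28.6, 30.2 and 30.4 CPM in vehicle A, B and C and did not pass (log2 fold change -0.38, SE 0.17, adjusted p = 0.0686). Ube2c was at 13.4, 22.1 and 23.5 CPM with forskolin and 22.9, 22.8 and 24.7 CPM with vehicle (log2 fold change -0.24, SE 0.138, adjusted p = 0.162). In both, forskolin A was far below the other libraries and forskolin B was also below all vehicle libraries, by less in Ube2c than in Cdc20. Without forskolin A the log2 fold changes were -0.13 (adjusted p = 0.282) for Cdc20 and -0.04 (adjusted p = 0.777) for Ube2c.

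At the centromere and kinetochore 2 of 6 genes fell, a share near the 25.1% of all genes. Cenpe, the gene of a kinetochore motor that brings chromosomes to the spindle equator (mm10 chromosome 3, 135212563 to 135273540), was at 20.7, 24.9 and 27.8 CPM in forskolin A, B and C, against 36.1, 37.9 and 35.7 CPM in vehicle A, B and C. The highest forskolin library was below the lowest vehicle library by a wide gap, and the gene fell (log2 fold change -0.58, SE 0.0913, adjusted p = 4.01e-05). Without forskolin A the value was -0.47 (adjusted p = 2.33e-05), and Cenpe passed under 14 of 14 alternatives. Its promoter is printed above. Cenpa, which encodes the histone H3 variant that marks centromeres (mm10 chromosome 5, 30666886 to 30674837), was at 7.70, 10.6 and 14.2 CPM with forskolin and 15.2, 15.7 and 16.1 CPM with vehicle. It fell, with no overlap of the groups (log2 fold change -0.53, SE 0.155, adjusted p = 0.00865), and without forskolin A its log2 fold change was -0.34 (adjusted p = 0.0273). The call of Cenpa was lost with library size as a covariate (adjusted p = 0.301). Ndc80 and Nuf2, partners in the complex that grips microtubules, had log2 fold changes of -0.38 and -0.12 and did not pass (adjusted p = 0.0536 and 0.462). Leaving out forskolin A gave -0.22 (adjusted p = 0.21) and -0.02 (adjusted p = 0.927). Cenpf was at 7.88, 13.9 and 15.4 CPM with forskolin and 15.1, 12.9 and 12.4 CPM with vehicle and did not pass (log2 fold change -0.11, SE 0.172, adjusted p = 0.642), nor without forskolin A, with 0.13 (adjusted p = 0.409). Birc5, the gene of survivin in the passenger complex, had a log2 fold change of -0.11 and did not pass, nor without forskolin A, with 0.08 (adjusted p = 0.562). For both, forskolin C exceeded all vehicle libraries.

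Of 4 genes for spindle motors and microtubule binders, Tpx2 alone fell (all genes 25.1%). Tpx2 encodes an activator of aurora A that nucleates spindle microtubules (mm10 chromosome 2, 152847964 to 152895321), and it was at 27.2, 42.4 and 49.6 CPM in forskolin A, B and C, against 55.1, 59.7 and 53.0 CPM in vehicle A, B and C. The groups did not overlap (log2 fold change -0.49, SE 0.128, adjusted p = 0.00406), and without forskolin A the log2 fold change was -0.28 (adjusted p = 0.00203). The call of Tpx2 was lost by DESeq2 and with library size as a covariate. Kif11, the gene of the motor that pushes spindle poles apart, was at 12.5, 20.8 and 22.8 CPM with forskolin and 18, 15.6 and 19.5 CPM with vehicle. Forskolin B and C exceeded all vehicle libraries, and the log2 fold change of 0.10 (adjusted p = 0.641) became 0.31 (adjusted p = 0.0176) without forskolin A. Nusap1 was at 45.1% of its vehicle mean in forskolin A and 115% over forskolin B and C. Kif2c, a microtubule-depolymerising motor gene, was at 9.07, 10.5 and 14.3 CPM with forskolin and 15.1, 16.2 and 9.80 CPM with vehicle, with vehicle C apart from the other vehicle libraries. Neither passed (adjusted p = 0.697 for Nusap1 and 0.199 for Kif2c).

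The central spindle and cytokinesis genes act last, after the chromosomes have parted, and 4 of 5 fell (all genes 25.1%). The count was 3 without forskolin A (all genes 24.7%), 2 by DESeq2 (all genes 22.3%) and 2 without vehicle B (all genes 21.2%). It was 0 in the fit that holds library size as a covariate (2299 of all 13357 genes). Anln (mm10 chromosome 9, 22331214 to 22389206) was at 94.5, 121 and 133 CPM in forskolin A, B and C, against 157, 164 and 153 CPM in vehicle A, B and C. Every forskolin library was below every vehicle library (log2 fold change -0.44, SE 0.0792, adjusted p = 0.000151), and without forskolin A the value was -0.31 (adjusted p = 9.97e-06). Kif20a, a motor gene of the central spindle (mm10 chromosome 18, 34624936 to 34633277), was at 31.7, 37.6 and 44.4 CPM with forskolin and 45.7, 51.6 and 50.3 CPM with vehicle. It fell, again without overlap (log2 fold change -0.37, SE 0.0916, adjusted p = 0.00237). Its exons overlap Cdc23 on the other strand, 68.8% of its stretches being found in no other gene, and Cdc23 had a log2 fold change of 0.01, so the Kif20a counts are uncertain. Prc1, whose protein bundles the antiparallel microtubules between the separating chromosomes, was at 28.6, 42.2 and 45.4 CPM with forskolin and 48.8, 53.0 and 50.1 CPM with vehicle (log2 fold change -0.38, SE 0.109, adjusted p = 0.0073). Its exons overlap Rccd1 (73.4% of stretches found in no other gene), and its counts are likewise uncertain. Ect2, the gene of the exchange factor that starts furrow formation, was at 10.4, 17.8 and 21.2 CPM with forskolin and 21.7, 22.1 and 21.6 CPM with vehicle (log2 fold change -0.39, SE 0.157, adjusted p = 0.0457). Without forskolin A the values were -0.26 (adjusted p = 0.00561) for Kif20a, -0.21 (adjusted p = 0.0137) for Prc1 and -0.16 (adjusted p = 0.195) for Ect2. The call of Ect2 was also lost without forskolin B, vehicle A, vehicle B or vehicle C, and that of Prc1 without vehicle B (adjusted p = 0.0539). Both calls were lost by DESeq2 and with library size as a covariate as well. Kif23, whose protein works beside ECT2, did not pass (log2 fold change -0.16, SE 0.177, adjusted p = 0.464).

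Mki67 and Top2a, both used to count cycling cells, did not go together. Mki67, whose protein coats mitotic chromosomes (mm10 chromosome 7, 135689788 to 135716379), was at 40.3, 63.6 and 66.2 CPM in forskolin A, B and C, against 71.2, 77.7 and 71.0 CPM in vehicle A, B and C. The groups did not overlap and the gene fell (log2 fold change -0.36, SE 0.114, adjusted p = 0.0127). Without forskolin A the log2 fold change was -0.17 (adjusted p = 0.0179). The call was lost without vehicle B (adjusted p = 0.0866), by DESeq2 (adjusted p = 0.172) and with library size as a covariate (adjusted p = 0.969). Top2a, which encodes the topoisomerase that untangles sister chromatids (mm10 chromosome 11, 98992947 to 99024189), was at 54.4, 85.3 and 89.1 CPM in forskolin A, B and C, against 68.4, 75.7 and 69.7 CPM in vehicle A, B and C. Forskolin B and C were above all vehicle libraries and forskolin A below them (log2 fold change 0.10, SE 0.115, adjusted p = 0.476). In the fit without forskolin A, a library left out for its low values in these genes, Top2a rose by 0.29 (adjusted p = 0.000118).

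Set against the sum of the 30 genes in its own library, each member's share shows the make-up of the set rather than its level. This description was chosen after the values were seen and carries no test. The shares of a library add up to a fixed whole, so lower shares of some members bring higher shares of others. The shares of 6 members, Anln, Cenpe, Cenpa, Tpx2, Foxm1 and Prc1, were lower in all forskolin libraries than in all vehicle libraries. Those of 6 others, Top2a, Aurkb, Kif11, Ccna2, Birc5 and Aurka, were higher. Counts of all genes set over the same sum were lower without overlap for 5.50% and higher for 37.2%, the sum itself being low in forskolin A. The share of Anln was 16.0, 14.3 and 13.9% in forskolin A, B and C, against 16.7, 16.3 and 16.3% in vehicle A, B and C. The share of Top2a was 9.20, 10.1 and 9.29% in forskolin A, B and C, against 7.31, 7.55 and 7.40% in vehicle A, B and C. Aurkb had 2.0, 1.88 and 1.98% in forskolin A, B and C, against 1.42, 1.41 and 1.34% in vehicle A, B and C. Forskolin A thus stood with forskolin B and C in the make-up of the set for Top2a and Aurkb while it stood apart from them in the level. For Ccna2 its share was higher than theirs, with 6.66, 5.18 and 5.09% in forskolin A, B and C, against 4.63, 4.53 and 4.34% in vehicle A, B and C. Of these 12 genes, the gap between the groups was wider than the range within each group for Top2a and Aurkb only. For Anln, Cenpa, Foxm1, Kif11, Birc5 and Aurka it was narrower than the range within either group.

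**Figure D5:**
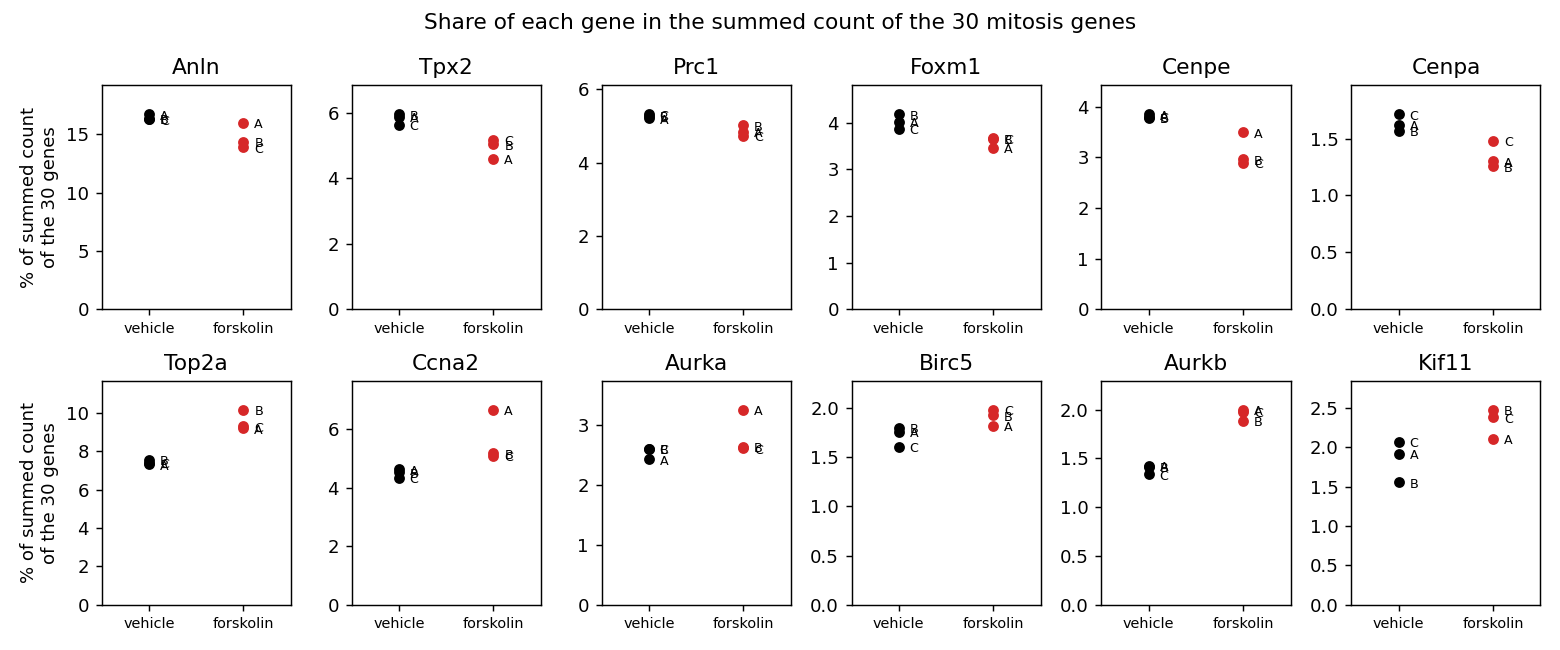
Share of 12 genes in the summed count of the 30 mitosis genes (vertical axes, percent, from 0), 1 point per library, lettered A to C, vehicle in black and forskolin in red. In the upper row the forskolin libraries lie below the vehicle libraries and in the lower row above them, by the smallest margins for Aurka, Birc5 and Kif11.

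A list of 98 other mitosis genes, which shares no gene with the 30, was also lowest in forskolin A. In it 26 fell and 5 rose (all genes 25.1% and 24.8%), so the share that fell was near that of all genes. The median log2 fold change was -0.12, and forskolin A was the lowest of the 6 libraries for 77 of 98 (all genes 18.8%). Its summed level was 2098, 2494 and 2623 CPM in forskolin A, B and C, and 2652, 2718 and 2655 CPM in vehicle A, B and C. Without forskolin A 22 fell and 8 rose (all genes 24.7% and 24.4%), with a median of 0.01. In the 4 of them with the smallest adjusted p-values the groups lay far apart. Gtse1, which encodes a microtubule-binding protein of G2, was at 28.6, 35.6 and 41.9 CPM with forskolin and 99.7, 108 and 104 CPM with vehicle and fell (log2 fold change -1.55, SE 0.0859, adjusted p = 4.91e-11). Psrc1, the gene of a spindle microtubule protein, was at 9.48, 8.80 and 9.21 CPM with forskolin and 25.7, 29.1 and 26.0 CPM with vehicle and also fell (log2 fold change -1.56, SE 0.103, adjusted p = 5.25e-10). Zw10, a kinetochore gene, fell from 107 ± 0.411 to 77.7 ± 2.88 CPM, and the nuclear lamina gene Lmnb1 rose from 76.2 ± 4.39 to 107 ± 1.62 CPM (SD, n = 3 each, adjusted p = 2.68e-07 and 2.83e-07). In Psrc1, Zw10 and Lmnb1 the 3 forskolin libraries lay close together, while in Gtse1 forskolin A was again the lowest. With forskolin A left out they had log2 fold changes of -1.42 (adjusted p = 1.78e-16) for Gtse1 and -1.58 (adjusted p = 2.47e-12) for Psrc1, -0.49 (adjusted p = 9.92e-09) for Zw10 and 0.51 (adjusted p = 9.82e-09) for Lmnb1.

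Genes of S phase, the step before, had their lowest sum in forskolin A as well. Of 33 genes 12 fell and 0 rose over all libraries (all genes 25.1% and 24.8%), and 30 had their lowest level in forskolin A (all genes 18.8%). The summed level was 1289, 1551 and 1763 CPM in forskolin A, B and C, and 1837, 1880.5 and 1846 CPM in vehicle A, B and C, so that here forskolin C too lay below every vehicle library. Ccne1, the cyclin E1 gene, fell from 58.1 ± 1.66 to 34.1 ± 8.65 CPM, Rrm1, a ribonucleotide reductase gene, from 166 ± 0.537 to 113 ± 18.1 CPM, and the replication licensing genes Mcm3 from 115 ± 1.93 to 80.7 ± 9.58 CPM and Mcm4 from 139 ± 4.61 to 101 ± 17.6 CPM (SD, n = 3 each). Without forskolin A 11 fell and 2 rose (all genes 24.7% and 24.4%), and without forskolin C 20 fell (all genes 25.3%). In the fit without forskolin A the log2 fold changes were -0.63 (adjusted p = 6.91e-07) for Ccne1, -0.44 (adjusted p = 1.14e-07) for Rrm1, -0.43 (adjusted p = 2.94e-07) for Mcm3 and -0.33 (adjusted p = 1.17e-05) for Mcm4.

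Core subunits of the anaphase-promoting complex are not confined to cycling cells. The list of them, which also held Fzr1 and Ube2s, did not share that order. Forskolin A was the lowest library for 2 of 16 (all genes 18.8%), and the summed level was 1517 to 1524 CPM with forskolin and 1479.7 to 1512 CPM with vehicle. Anapc11 and Anapc5 rose (log2 fold changes 0.32 and 0.13) and Anapc7 and Anapc15 fell (-0.27 and -0.27). Without vehicle A 1 gene fell (2913 of all 13357 genes). Without forskolin A 2 fell and 3 rose (all genes 24.7% and 24.4%). Among 23 genes of MuvB, E2F, pocket protein and NF-Y factors 5 fell and 2 rose (all genes 25.1% and 24.8%). Of these factors, MuvB and NF-Y are those described above as binding the promoter elements searched. The MuvB gene Lin9 fell (log2 fold change -0.41, adjusted p = 0.0116), while Lin37, Lin52, Lin54 and Rbbp4 did not pass. Mybl2, the gene of B-MYB, did not pass either (log2 fold change -0.11, adjusted p = 0.593). Without forskolin A both Lin9 and Lin52 fell (-0.39 and -0.34, adjusted p = 0.019 and 0.0485). The repressor gene E2f7 fell from 34.0 ± 3.11 to 18.2 ± 4.42 CPM (log2 fold change -0.89, SE 0.125, adjusted p = 1.08e-05). The NF-Y subunit genes parted, Nfya falling from 77.7 ± 2.14 to 63.7 ± 5.82 CPM and Nfyb rising from 21.3 ± 2.33 to 29.9 ± 0.924 CPM, and E2f4 rose by 0.20 (adjusted p = 0.0103). With forskolin A left out the values were -0.71 (adjusted p = 2.84e-07) for E2f7, -0.34 (adjusted p = 4.96e-05) for Nfya, 0.48 (adjusted p = 0.000135) for Nfyb and 0.25 (adjusted p = 0.000809) for E2f4. In that list 5 rose without forskolin A (all genes 24.4%) and 1 without forskolin B or without vehicle A (2877 and 2829 of all 13357 genes). In the same list 2 fell without vehicle A and 3 without vehicle C (2913 and 2833 of all 13357 genes).

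Markers of other cell types did not set forskolin A apart. The summed level of 11 macrophage markers was 37.7, 38.7 and 39.2 CPM in forskolin A, B and C and 34.9 to 36.7 CPM with vehicle. Only 3 of the 11 had enough counts to be tested, and Marco had 0 counts in all libraries. Of those 3, Cd68 and Csf1r rose (log2 fold changes 0.50 and 0.47) and Lyz2 fell (-1.36). Sinusoidal endothelial markers summed to 15.9 to 16.7 CPM with forskolin and 17.2 to 20.3 CPM with vehicle. Within that list Stab2 rose (log2 fold change 1.30) and Kdr and Lyve1 fell (-1.54 and -0.63). The 8 hepatocyte, 7 lymphocyte and 5 erythroid markers each summed to at most 1.09 CPM in any library, and Fgb and Serpina1a had 0 counts. The macrophage, endothelial and stellate sums did not overlap between the groups, nor did those of 2 further lists. Mesothelial and portal fibroblast markers were at 23.5 to 31.2 CPM with forskolin and 7.77 to 8.41 CPM with vehicle. With forskolin nearly all of it was Cd34 and Thy1, at 19.6 and 4.95 CPM on average, against 3.86 and 0.650 CPM with vehicle. Wt1 and Eln had log2 fold changes of -0.68 and -0.55 and did not pass. The mesothelial genes Msln and Upk3b were below 1 CPM in both group means. Cholangiocyte markers were at 35.9 to 44.8 and 69.4 to 78.8 CPM, nearly all of it Krt19, with Epcam and Krt7 below 1 CPM. Against that fall Sox9 of the same list rose from 1.54 to 3.45 CPM (log2 fold change 1.19). The part of other cell types in the levels of the mitosis genes was not tested further.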

How the data were processed

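RNA was measured by sequencing of polyadenylated RNA in 3 forskolin and 3 vehicle libraries of 1 experiment. The deposited values are unnormalised estimated counts per gene over exons, multiples of 0.5 with 31.8% not whole. Per the submitters' processing notes, STAR, HOMER and the mm10 build were used. The sources used here give no versions, settings or use of strand. The labels name the NEBNext Ultra kit.

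Counts were rounded to whole numbers (ties to the even number), filtered (filterByExpr, minimum count 10, minimum total 15) and tested with edgeR 4.0.16 in R 4.3.3, quasi-likelihood with TMM scaling, no covariate and Benjamini-Hochberg adjustment over all 13357 tested genes, at an adjusted p under 0.05. The method was tested on simulated data with counts drawn independently for each gene. No simulated library was low across a whole gene set as forskolin A was, so that case was not tested. SE values, also in the figure, are the size of the log2 fold change over the square root of the quasi-likelihood F statistic. They are thus derived from the test. The common biological coefficient of variation was 4.44%. CPM values use TMM-scaled library sizes and unrounded counts, and CPM per kilobase uses the transcript length in the deposited table. With 10890193 to 15090262.5 counts per library, the least abundant member had 33.0 counts in its lowest library.

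Alternatives were DESeq2 1.42.0, its size factors in edgeR, library size alone, no filter, at least 1 CPM in 3 libraries, no rounding, library size as a covariate, a replicate block and leaving out each library. Uniqueness is the share of 50-base stretches of a member's transcripts (GENCODE M21) that no other gene's transcript holds. The members and lists were chosen with earlier results of these data known. Values in every library are given for members past the threshold, for Mki67, Top2a, Cdk1, Ccnb1, Plk1, Aurka and Foxm1, and for the highest and lowest per kilobase, and other members that contrast with these were added after their values were seen. Of each other list the 4 genes past the threshold with the smallest adjusted p are named. The MuvB genes and Mybl2 were added after their values were seen.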

Additional observations from a re-analysis of the deposited data

How the results depend on the processing

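With library size as a covariate 4297 of all 13357 tested genes passed (2299 lower, 1998 higher) in place of 6668. In that fit 1 member fell and 1 rose, 7 other mitosis genes fell and 3 rose, 1 core gene of the anaphase-promoting complex fell and 1 rose, 2 transcription regulators fell, 3 S phase genes fell, and the members' median log2 fold change was 0.017. The log2 fold changes turned there to 0.18 for Cdk1, 0.089 for Bub1, 0.14 for Bub1b, 0.015 for Aurka, 0.086 for Plk1, 0.27 for Birc5, 0.24 for Cenpf, 0.26 for Kif23, 0.14 for Kif2c, 0.011 for Ube2c, 0.48 for Nusap1, 0.24 for Ttk and 0.019 for Nuf2, none of which passed in the reported fit. The cause was not tested. DESeq2 called 4 members lower (all genes 22.3%). Scaling by library size alone gave 0.021 for Bub1b and 4 genes of the complex core higher (3988 of all genes). Leaving out 1 library at a time gave 5 to 17 members lower and 0 to 3 higher, with a median of -0.45 to -0.028. Over the 13357 genes these fits called 2833 to 3382 lower and 2741 to 3350 higher. In them 17 to 37 other mitosis genes fell and 3 to 8 rose. Of core genes 1 to 3 fell, and of regulators 2 to 6 fell and 1 to 5 rose. Of S phase genes 9 to 20 fell and 0 to 2 rose. The sign changed in these fits for Birc5 (-0.28 to 0.085), Bub1 (-0.27 to 0.017), Bub1b (-0.11 to 0.084), Ccna2 (-0.057 to 0.095), Cdk1 (-0.38 to 0.058), Cenpf (-0.28 to 0.13), Kif11 (-0.061 to 0.31), Kif23 (-0.43 to 0.018), Nusap1 (-0.35 to 0.20), Top2a (-0.014 to 0.29) and Ttk (-0.54 to 0.18). Over the 10 members that fell and 14 alternatives, 110 values stayed past the threshold and 30 did not, all with the same sign. With the letters as a replicate block 11 members fell, the added one being Cdc20, and 6675 genes passed (3372 lower). Same-lettered libraries deviated together with correlations of only 0.0291, 0.0203 and 0.0377 for A, B and C, each the highest of its library, so the letters were not taken to pair the libraries.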

Other observations

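Summed by role, the members did not all lie the same way in forskolin C, the forskolin library closest to vehicle. The 5 central spindle and cytokinesis genes summed to 173, 229 and 259 CPM in forskolin A, B and C and to 285 to 305 CPM with vehicle, without overlap. The 6 centromere and kinetochore genes were at 65.1, 88.2 and 103 CPM and at 106 to 111 CPM, also without overlap. The 6 kinase and checkpoint genes were at 81.4, 109 and 129 CPM and at 105 to 119 CPM, so that forskolin C was above every vehicle library. The genes of Mki67 and Top2a, summed, were at 94.7, 149 and 155 CPM and at 139.6 to 153 CPM, with forskolin C again above every vehicle library. So it was for the 5 genes of the cyclins, CDK1 and FOXM1, at 96.7, 136 and 159 CPM and at 147 to 158 CPM. Cdc20 and Ube2c were at 26.8, 45.3 and 54.7 CPM and at 51.5 to 55.0 CPM. The 4 spindle genes were at 53.4, 84.8 and 99.1 CPM and at 91.4 to 102 CPM. In these last 2 roles forskolin C lay within the vehicle range. The grouping follows the textbook roles of the genes, and no sum was tested. Over single members, the highest of the 6 libraries was forskolin C for 13, vehicle B for 10, vehicle C for 4, vehicle A for 2 and forskolin B for 1.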
